A study of Homo sapiens with 6 samples.

Results

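The ADAM and ADAMTS genes encode zinc metalloproteases that cut proteins at the cell surface and in the matrix around cells. This account covers 10 of them, the ADAM-family genes ADAM8, ADAM9, ADAM10, ADAM12, ADAM15, ADAM17 and ADAM19 and the ADAMTS-family genes ADAMTS1, ADAMTS6 and ADAMTS14, among 15761 gene symbols with a row in the deposited table. They were picked by gene symbol, as a family that carries out shedding and collagen processing. The list was chosen with the exosome-against-control fold changes of these libraries known, so the members' own fold changes are a description, carry no p-value here and support nothing further. Calls are still stated, as past or not past an adjusted p of 0.05 in a fit of the whole table.

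The RNA came from SK-MES-1, an established human cell line of lung squamous carcinoma that the labels call wild type. In the exosome group, 3 libraries came from cells given 20 µg/ml of exosomes for 72 h. Exosomes are small vesicles released by cells, and the donors of these were lung fibroblasts from idiopathic pulmonary fibrosis (IPF), a disease that scars the lung. In the control group, 3 libraries came from cells without exosomes. Senescent fibroblasts and MMP1, a collagenase in their exosomes, are named in the series title, and the comparison shows how the transcripts of the tumour cells differ when such vesicles are present. All libraries share 1 cell line, so they show that line only and no other.

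ADAM proteins sit in the plasma membrane and release the outer parts of other membrane proteins, a cut called shedding, which frees growth factors such as the EGF receptor ligands and opens Notch receptors to further cleavage. ADAMTS proteins are secreted and carry thrombospondin repeats that hold them in the matrix, where they trim procollagens, proteoglycans and microfibril proteins. Both families are made with an inhibitory propeptide, which furin-type convertases remove from many members but not all. Some members, but not all, are held in check by tissue inhibitors of metalloproteases (TIMPs). In lung and other carcinomas they are studied for growth factor release, adhesion and remodelling of the matrix.

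The catalytic site that the families share is shown first, since it defines the enzymes that the results concern. In the protein it reads histidine, glutamate, 2 free residues, histidine, 2 free residues, glycine, 2 free residues, histidine, and the 3 histidines hold the zinc ion. A search of the longest coding sequence of each gene (GENCODE 29 transcripts, GRCh38) found this pattern once in 9 of the 10 genes. These are the 33 coding bases of 8 sites, 5′ to 3′ on the coding strand, with the codons of the 3 histidines in capitals.
ADAMTS14: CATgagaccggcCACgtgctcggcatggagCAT
ADAMTS6: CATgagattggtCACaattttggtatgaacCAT
ADAM8: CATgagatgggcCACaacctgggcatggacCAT
ADAM15: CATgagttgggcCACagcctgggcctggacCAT
ADAM10: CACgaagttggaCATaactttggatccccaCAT
ADAM17: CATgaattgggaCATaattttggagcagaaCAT
ADAM12: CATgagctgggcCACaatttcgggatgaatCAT
ADAM19: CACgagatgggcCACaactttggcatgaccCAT
ADAM9 also held the pattern, and ADAMTS1 had no match to these letters in its longest coding sequence, from which nothing is drawn. The sites of ADAM8 and ADAM15 shared 30 of 33 bases (90.9%), and those of ADAMTS14 and ADAM10 shared 14 (42.4%). The lines also show 1 property that recurs below, base composition: GC bases made up 63.6% of the site in ADAMTS14 and in ADAM15 and 36.4% in ADAMTS6 and in ADAM17.

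Library totals were 13038688 to 13334508 counts in the exosome group and 11346639 to 12924251 in the control group, with 14294 to 14540 genes detected per library. Exosome library 3 and control library 3 each stood apart from the other libraries of their group: the chi-square per gene was 7.15 and 9.34 for the exosome pairs with library 3 against 3.11 for the other pair, and 11.66 and 15.61 for the control pairs with library 3 against 2.29. The log2 fold changes of all 12449 tested genes also followed base composition. In a gene's GC content, each 10 percentage points went with 0.226, 0.158 and 0.061 on the log2 scale in exosome libraries 1 to 3, against −0.113, −0.133 and −0.199 in control libraries 1 to 3, so every exosome slope lay above every control slope (CPM + 0.5 on the log2 scale). Across all tested genes the Spearman correlation of the fold change with GC content was 0.62, and it was 0.04 in a second fit with the trend on GC content and transcript length removed within each library; genes are not independent replicates. Both fits are given side by side, because what lies behind the trend was not tested. Of the cell line's expected markers, the keratin genes KRT5, KRT14 and KRT6A were under 1 CPM (the read count scaled to a common library total, by the library's own total alone) in every library, and the summed squamous epithelial list was 89.7 to 95.7 CPM in exosome libraries against 119 to 138 CPM in controls. Of its 5 tested genes KRT17 and CDH1 were lower. The log2 fold changes of TP63 (0.50, edgeR adjusted p = 0.189) and SOX2 (0.28, edgeR adjusted p = 0.363) were positive, and neither was called in either fit. Much of the sum came from EPCAM and from CDH1, whose mean was 20.7 CPM in exosome libraries and 51.5 CPM in controls. EPCAM was at 59.8 to 65.4 CPM in exosome libraries and 60.3 to 72.6 CPM in controls, with an edgeR adjusted p of 0.0504, 0.0022 with the trend removed and 0.00562 without control library 3. Of 10 fibroblast markers 7 had a row, and their sum was 17.2 to 17.9 CPM in exosome libraries against 21.7 to 22.7 CPM in controls. PDGFRA, COL3A1, FAP and THY1 were under 1 CPM in every library. Mean CPM in exosome libraries and controls was 9.06 and 10.8 for FBLN1, 6.72 and 7.65 for PDGFRB, and 1.42 and 3.31 for COL6A3. COL6A3 was called lower in both fits (−1.30, edgeR adjusted p = 0.000813, in the fit on counts). FBLN1 and PDGFRB were called lower only with the trend removed (edgeR adjusted p = 0.000897 and 0.0423).

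Of the 10 metalloprotease genes, 9 passed the filter on low counts. ADAMTS14, ADAM8 and ADAM15 were past the threshold as higher with exosomes, ADAMTS6, ADAM9, ADAM10 and ADAM17 as lower, and ADAM12 and ADAM19 were not past it. Of all tested genes, 25.6% were called higher and 26.1% lower by the same rule, and since these fold changes were known when the list was made, nothing is read from the 3 and 4 members. With the trend removed, ADAMTS14 and ADAM8 stayed higher and ADAMTS6 stayed lower, while ADAM9, ADAM10, ADAM15 and ADAM17 were no longer called, against a background of 18.2% called higher and 17.3% called lower. The CPM ranges of the groups did not overlap for 8 of the 9 tested members, and for 59.5% of all tested genes. The median log2 fold change was −0.02 over the 9 tested members and within 0.01 of 0 over all tested genes.

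**Figure D1:**
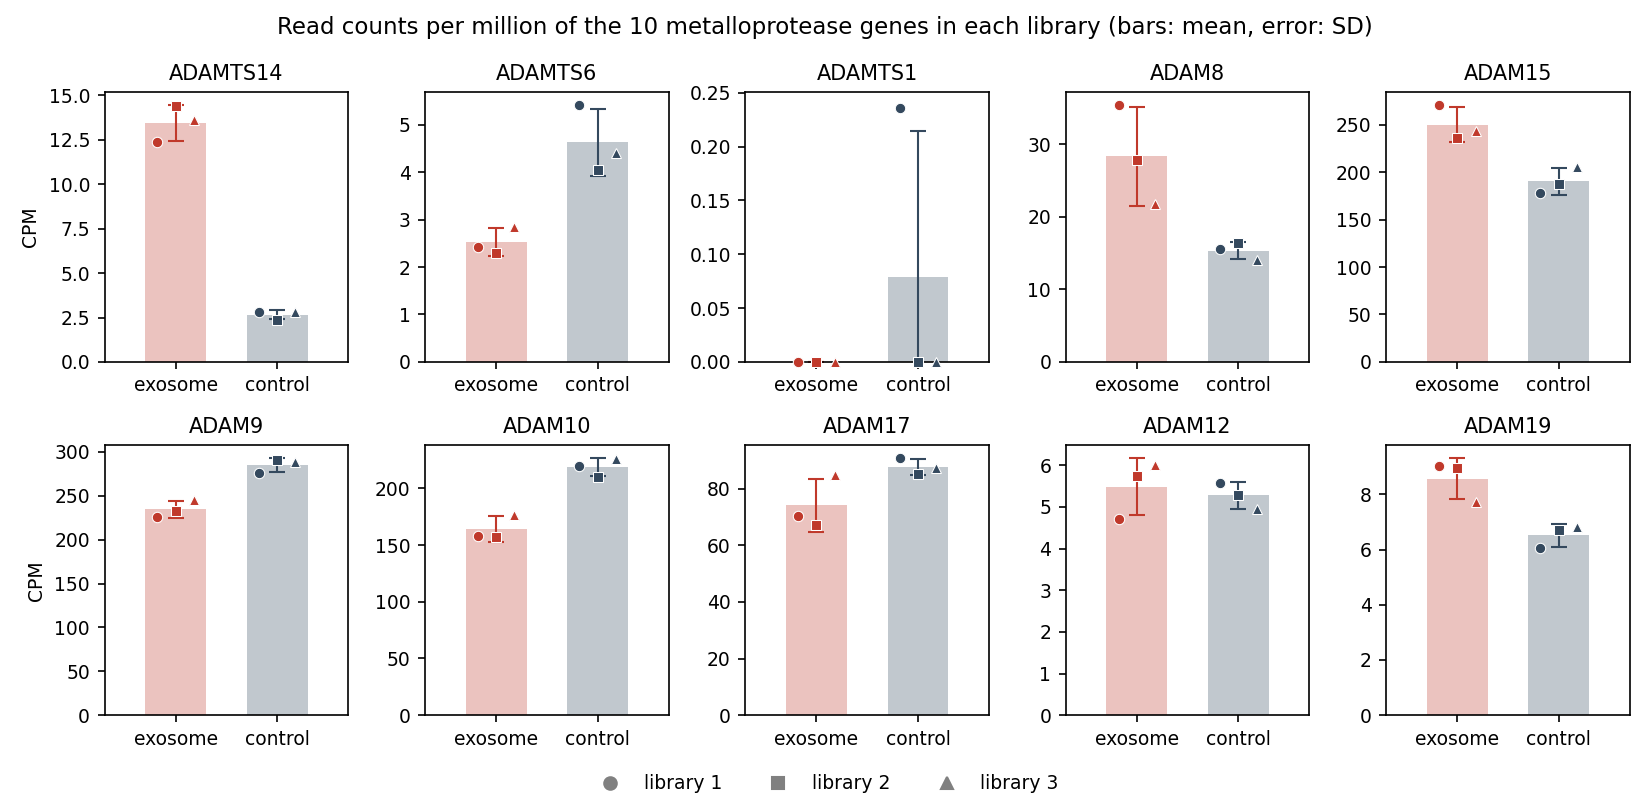
CPM (vertical axis, starting at 0 and scaled per gene) of the 10 metalloprotease genes in each library, with exosome libraries left of control libraries; points are libraries, bars are group means and error bars the SD (n = 3 each). ADAMTS14 sits at 12.4 to 14.4 CPM in exosome libraries and 2.38 to 2.83 CPM in controls, and the points of the groups overlap only for ADAM12 among the tested genes.

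ADAMTS14, a protease that removes the amino-terminal propeptide of fibrillar procollagens, was at 12.4, 14.4 and 13.6 CPM in exosome libraries 1 to 3 and at 2.83, 2.38 and 2.79 CPM in control libraries 1 to 3. All exosome libraries were above all controls, and the lowest of them was over 4 times the highest control. In bulk RNA, more expressing cells and more RNA per cell cannot be told apart. Behind these levels stood 163, 188 and 182 reads in exosome libraries and 36, 27 and 36 reads in controls. The log2 fold change was 2.25 ± 0.18 (SE), or 4.75-fold higher, and 1.97 ± 0.18 with the trend removed. Its transcript is GC-rich (61.6%), and among the tested genes in its GC bin (1 of 10 of equal size), whose log2 fold changes had a median of 0.36 and quartiles of 0.12 and 0.64, ADAMTS14 lay at percentile 99.9. The gene lies on the plus strand of chromosome 10 (chr10:70672803-70762441), and no other annotated gene overlapped its exons. Exosome library 3, which stood apart over all genes, lay between the other exosome libraries.

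ADAMTS6, a secreted protease that acts on fibrillin microfibrils, was the member with the largest fall. It had 2.43, 2.30 and 2.85 CPM in exosome libraries against 5.42, 4.05 and 4.41 CPM in controls. Every exosome library was below every control, at low counts of 32, 30 and 38 reads in exosome libraries and 69, 46 and 57 reads in controls. The log2 fold change was −0.95 ± 0.24, 1.94-fold lower with exosomes, and −0.66 ± 0.23 with the trend removed. Among tested genes of like GC content (42.5% for ADAMTS6) it stood at percentile 1.7. It maps to the minus strand of chromosome 5 (chr5:65148736-65481920). ADAMTS14 and ADAMTS6 thus moved in opposite directions, and their FPKM ratio (fragments per kilobase of transcript, scaled by library size, as the authors gave it) was 7.07, 8.70 and 6.65 in exosome libraries and 0.724, 0.814 and 0.876 in controls. ADAMTS14 was the more abundant of the pair in each exosome library and the less abundant in each control.

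ADAMTS1, which cleaves the proteoglycans aggrecan and versican, had no read in the 3 exosome libraries and 3 reads, 0 and 0 in control libraries 1 to 3. It was not tested. A limit of 3 counts corresponds to 0.225 to 0.230 CPM in exosome libraries and 0.232 to 0.264 CPM in controls, counting error only, so ADAMTS1 was not detected above that level in any library and no fold is given. It lies on the minus strand of chromosome 21 (chr21:26835747-26845409).

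ADAM8, a sheddase known from leucocytes and inflamed or invasive tissue, was at 35.4, 27.8 and 21.7 CPM in exosome libraries and 15.6, 16.4 and 14.0 CPM in controls. The groups did not overlap, but the exosome libraries spread widely (28.3 ± 6.83 CPM, against 15.3 ± 1.22 CPM in controls; CPM and FPKM errors are SDs with n = 3 in each group), and exosome library 3 was 0.52 lower on the log2 scale than the other exosome libraries. The log2 fold change was 0.80 ± 0.15 (1.74-fold higher), and 0.37 ± 0.12 (1.29-fold higher) with the trend removed. ADAM8 has a GC-rich transcript (63.8%), and its fold change lay above the quartile range of genes of like GC content, 0.24 to 0.74, at percentile 79.0. The leucocyte genes PTPRC and CD3E were at or near 0, at most 0.353 CPM in any library, while the 2 tested genes of the immune marker list, CD14 and CD68, were called higher with exosomes. The CD68 call (0.21, edgeR adjusted p = 0.0456) was lost without exosome library 1, 2 or 3 or control library 3 (adjusted p from 0.0682 to 0.167), and the value was −0.11 and not called with the trend removed. CD14, a co-receptor of bacterial lipopolysaccharide, was at 69.9 ± 8.19 CPM in exosome libraries and 23.0 ± 0.276 CPM in controls (edgeR adjusted p = 2.35e-10). The summed immune list was 253 to 275 CPM in exosome libraries and 163 to 194 CPM in controls, most of it from CD68, and its part in the ADAM8 result was not tested. ADAM8 is on the minus strand of chromosome 10 (chr10:133262403-133276868).

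ADAM15, a membrane protease that also carries an integrin-binding loop, was the most strongly expressed of the genes by FPKM. It stood at 271, 236 and 243 CPM in exosome libraries and 178, 188 and 206 CPM in controls. Each exosome library exceeded each control, with a log2 fold change of 0.31 ± 0.079. With the trend removed the value was −0.06 ± 0.075 and not past the threshold. At 63.9% GC its fold change lay inside the quartile range of like genes (0.24 to 0.74, median 0.49). ADAM15 lies on the plus strand of chromosome 1 (chr1:155050566-155062775), and its exons share 306 bases with DCST1 on the same strand. DCST1 was at 5.44 ± 0.689 CPM in exosome libraries and 2.81 ± 0.0904 CPM in controls, far below ADAM15.

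ADAM10 and ADAM17 are the principal sheddases of most cells: ADAM10 cuts Notch receptors and cadherins, and ADAM17 releases tumour necrosis factor and many EGF receptor ligands. ADAM10 was at 158, 157 and 177 CPM in exosome libraries against 220, 210 and 226 CPM in controls. All exosome libraries were below all controls, and the log2 fold change was −0.50 ± 0.079. With the trend removed it was 0.01 ± 0.059, so the call was gone and the sign turned. ADAM17 was at 70.4, 67.3 and 84.9 CPM in exosome libraries against 90.8, 85.2 and 87.4 CPM in controls. Exosome library 3 nearly reached the lowest control, and the other exosome libraries were clearly below it. The log2 fold change of ADAM17 was −0.32 ± 0.093, and 0.06 ± 0.074 and not called with the trend removed; without exosome library 2 it was −0.25 and not past the threshold. Both have AU-rich transcripts (38.3% GC for ADAM10 and 38.5% for ADAM17), and tested genes in their GC bin had a median log2 fold change of −0.39.

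The transcript levels of these sheddases can be set side by side within a library. The FPKM ratio of ADAM17 to ADAM10 was 1.33, 1.28 and 1.43 in exosome libraries and 1.23, 1.21 and 1.15 in controls, so the ranges did not overlap but lay close together. A ratio above 1 rests on the lengths behind FPKM, since ADAM10 came first in both groups per kilobase of the longest transcript. With the trend removed no ratio was taken, and the log2 fold changes were 0.06 for ADAM17 and 0.01 for ADAM10. ADAM10 is on the minus strand of chromosome 15 (chr15:58588807-58749978), where an antisense RNA shares 136 bases of its exons. ADAM17 is on the minus strand of chromosome 2 (chr2:9488486-9556732), where IAH1, an esterase gene on the opposite strand, shares 1323 exonic bases. The sources used here do not give whether counting used strand, so reads in these stretches cannot be assigned to one gene. IAH1 was at 40.6 ± 3.75 CPM in exosome libraries and 45.8 ± 5.65 CPM in controls, with a log2 fold change of −0.26 (edgeR adjusted p = 0.0465).

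ADAM9, a widely expressed sheddase linked to tumour cell adhesion and invasion, was at 226, 233 and 245 CPM in exosome libraries and 276, 291 and 288 CPM in controls. The exosome libraries were all below the controls with little spread (235 ± 9.84 CPM, against 285 ± 7.82 CPM in controls, SD, n = 3 each). The log2 fold change was −0.36 ± 0.074, and −0.09 ± 0.054 and not called with the trend removed, for a transcript of 39.4% GC. The FPKM ratio of ADAM15 to ADAM9 was 2.18, 1.84 and 1.80 in exosome libraries and 1.17, 1.17 and 1.30 in controls, without overlap. No ratio was taken with the trend removed, where the log2 fold changes were −0.06 for ADAM15 and −0.09 for ADAM9. Its size rests on the lengths behind FPKM: per kilobase of the longest transcript, ADAM9 (74.2) led ADAM15 (42.3) in controls. ADAM9 is on the plus strand of chromosome 8 (chr8:38996869-39105144).

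ADAM12 and ADAM19, related sheddases known for cutting HB-EGF and neuregulin precursors, were expressed at low levels and were not called in either fit. ADAM12 was at 4.71, 5.75 and 6.00 CPM in exosome libraries and 5.58, 5.29 and 4.95 CPM in controls. These ranges overlapped, and the log2 fold change of −0.02 ± 0.20 had a 95% interval of −0.43 to 0.38, which leaves room for a change in either direction. ADAM19 was at 9.04, 8.97 and 7.72 CPM in exosome libraries and 6.05, 6.70 and 6.81 CPM in controls. All exosome libraries were above all controls, yet the log2 fold change of 0.31 ± 0.17 had an interval of −0.03 to 0.66. ADAM12 lies on the minus strand of chromosome 10 (chr10:126012381-126388455) and ADAM19 on the minus strand of chromosome 5 (chr5:157395534-157575775), where 62 exonic bases are shared with CYFIP2, a gene with at most 1.46 CPM in any library.

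**Figure D2:**
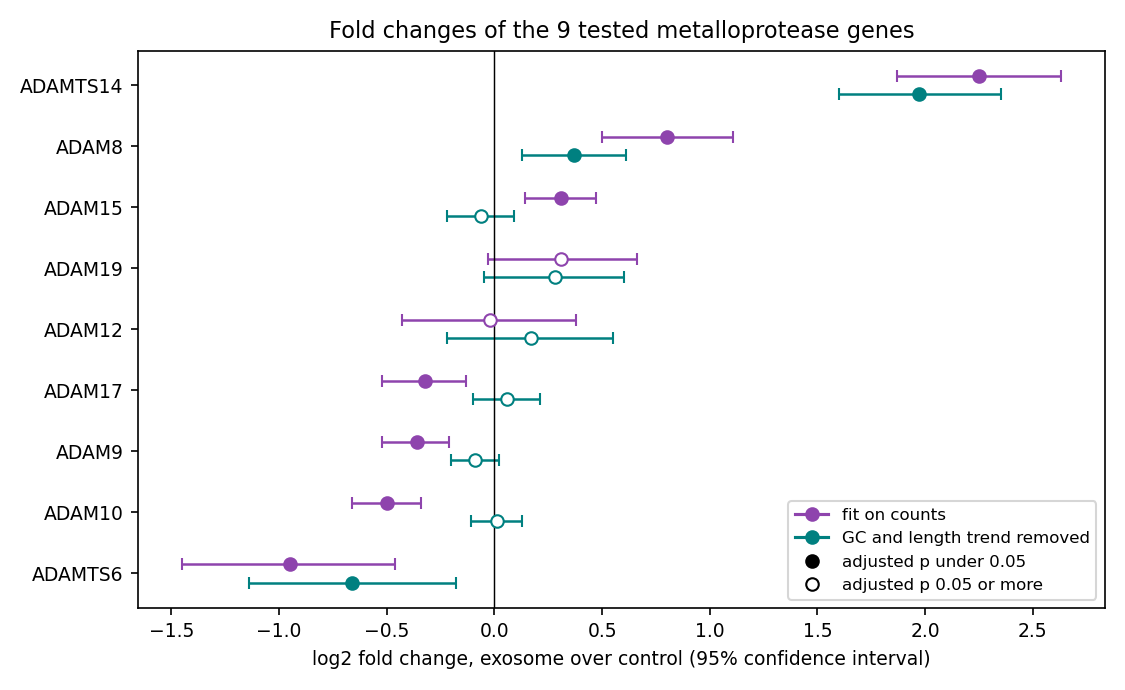
Log2 fold change of exosome over control libraries (horizontal axis) with 95% confidence intervals for the 9 tested metalloprotease genes, in the fit on counts and in the fit with the GC and length trend removed; filled points are past an adjusted p of 0.05. ADAMTS14 (2.25 and 1.97), ADAM8 (0.80 and 0.37) and ADAMTS6 (−0.95 and −0.66) keep their side in both fits, while ADAM9, ADAM10, ADAM15 and ADAM17 come to lie within 0.1 of 0 with the trend removed.

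The order of the members' fold changes followed the GC content of their transcripts. Over the 9 tested genes the Spearman correlation of log2 fold change with GC content was 0.77, and −0.55 with transcript length; with the trend removed the value for GC was 0.42. These are descriptions over 9 genes from the same 6 libraries. The fold changes of 6 members, ADAM9, ADAM10, ADAM12, ADAM15, ADAM17 and ADAM19, lay between the quartiles of all tested genes of like GC content. ADAMTS14 and ADAM8 lay above those quartiles and ADAMTS6 below them. The same contrast of composition is found in the coding sequence, most clearly at the third base of the codons. GC made up 80.2% there in ADAM8, 74.7% in ADAMTS14 and 67.2% in ADAM15. It made up 33.2% in ADAM10, 38.5% in ADAM9, 42.3% in ADAMTS6 and 45.7% in ADAM17. The split was not clean, as ADAM19 (66.2%), which was not called, lay next to ADAM15, and ADAM12, also not called, was at 57.6%.

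**Figure D3:**
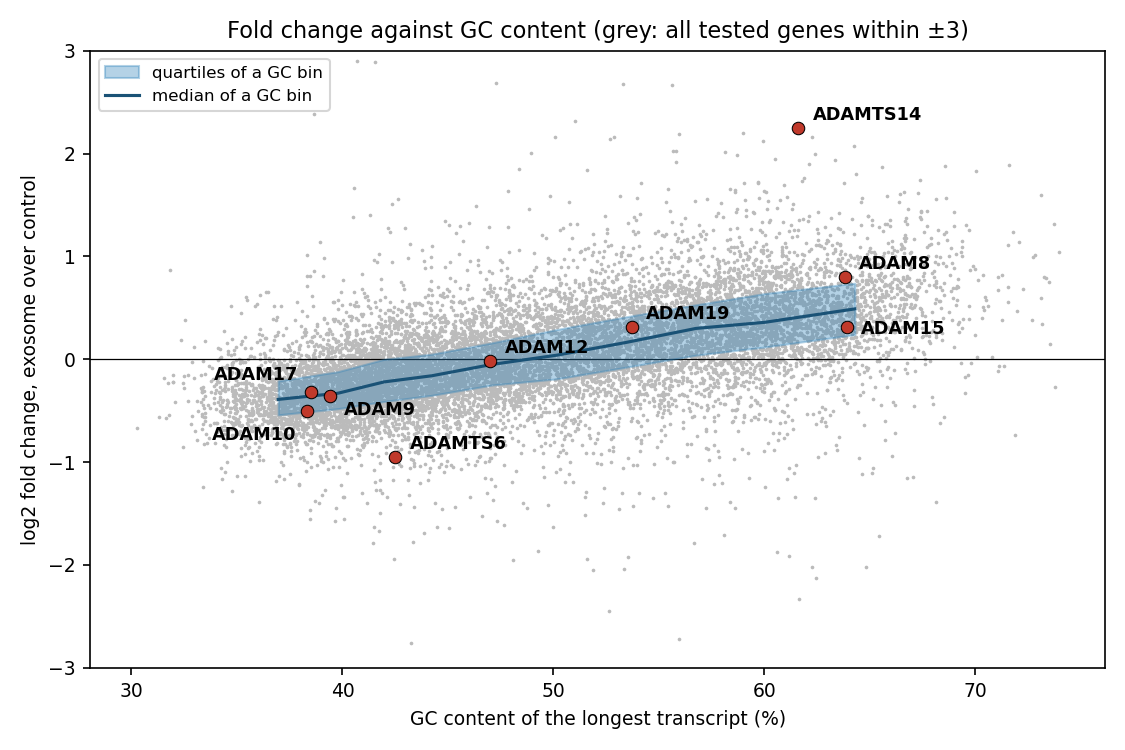
Log2 fold change of exosome over control (vertical axis) against GC content of the longest transcript in percent (horizontal axis), with all tested genes within ±3 in grey, the median and quartiles of 10 GC bins in blue and the 9 tested metalloprotease genes in red. The bin medians climb from −0.39 at the lowest GC content to 0.49 at the highest; 6 of the named genes lie inside the quartile band, ADAMTS14 and ADAM8 above it and ADAMTS6 below it.

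Levels can be compared between genes only per length, and the authors' FPKM values were used for that. In exosome libraries the order was ADAM15 (76.6 ± 5.79 FPKM), ADAM9 (39.6 ± 1.66), ADAM17 (16.8 ± 2.13), ADAM10 (12.5 ± 0.864), ADAM8 (8.64 ± 2.08), ADAMTS14 (2.56 ± 0.196), ADAM19 (1.22 ± 0.105), ADAM12 (0.621 ± 0.0776) and ADAMTS6 (0.346 ± 0.0393, SD, n = 3 each), with ADAMTS1 at 0. No neighbours in that order overlapped. In control libraries the order was ADAM15 (58.4 ± 4.38 FPKM), ADAM9 (48.0 ± 1.32), ADAM17 (19.9 ± 0.635), ADAM10 (16.7 ± 0.624), ADAM8 (4.68 ± 0.372), ADAM19 (0.925 ± 0.058), ADAMTS6 (0.633 ± 0.0972), ADAM12 (0.597 ± 0.0357) and ADAMTS14 (0.506 ± 0.0471), and ADAMTS6 and ADAM12 overlapped. The top 5 genes held the same places in both groups, and ADAMTS14 stood at place 6 in exosome libraries and place 9 in controls.

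The order depends on the transcript length assumed. The FPKM values imply 5932 bases for ADAM9 and 4413 bases for ADAM17, whereas the longest annotated transcripts have 3839 and 6573 bases. In CPM per kilobase of the longest transcript, ADAM9 (61.1) and ADAM15 (55.5) overlapped at the top in exosome libraries and ADAM9 (74.2) led ADAM15 (42.3) in controls. ADAM10 came before ADAM17 on that scale, with 14.3 against 11.3 in exosome libraries and 19.1 against 13.4 in controls. Summed over the 10 genes, the metalloproteases made up 752 to 802 CPM in exosome libraries and 801 to 841 CPM in controls, ranges that barely met.

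**Figure D4:**
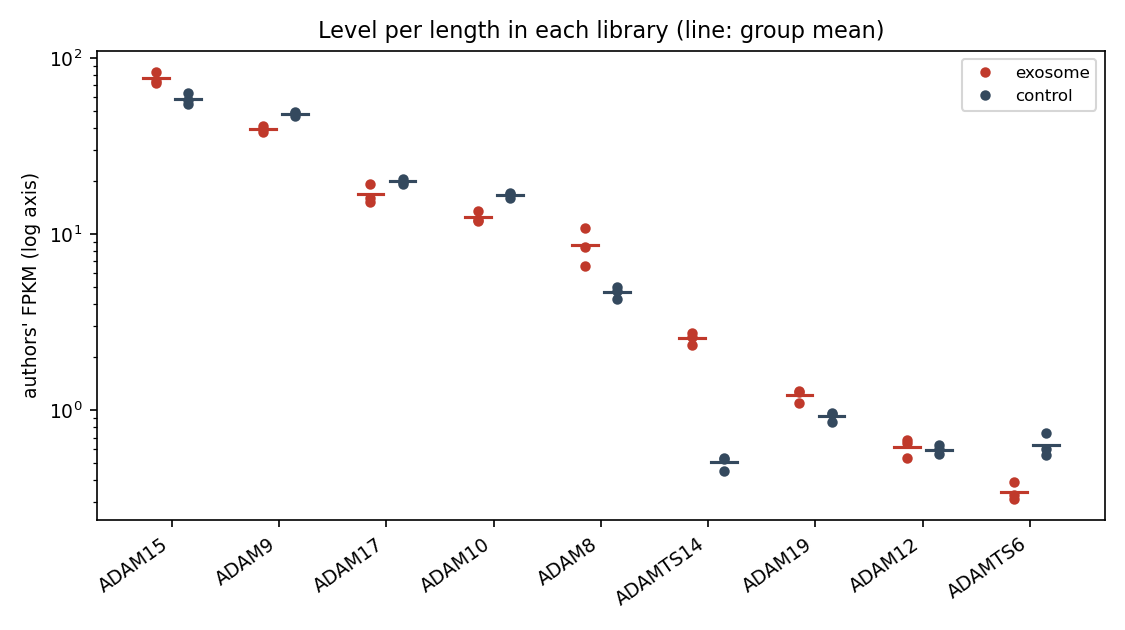
FPKM as deposited by the authors (vertical log axis) of the 9 tested metalloprotease genes in each library, with exosome points left of control points for each gene and horizontal lines at the group means. ADAM15 leads in both groups (76.6 ± 5.79 in exosome and 58.4 ± 4.38 in control libraries), and ADAMTS14 changes place among the low genes, with 2.56 ± 0.196 FPKM in exosome and 0.506 ± 0.0471 FPKM in control libraries.

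The proteins that carry, activate and inhibit these proteases were looked at as lists taken from textbook knowledge. These lists, and those of ligands, substrates and other family genes below, were chosen with earlier results of these data known. Their counts are therefore a description and support nothing further. Their genes carry p-values adjusted over all tested genes (edgeR quasi-likelihood test, Benjamini-Hochberg). The counts in these lists stand against 25.6% of all tested genes called higher and 26.1% lower, and 18.2% and 17.3% with the trend removed. ADAM17 needs an inactive rhomboid, RHBDF1 or RHBDF2 (iRhom1 and iRhom2), to leave the endoplasmic reticulum, and FRMD8 steadies the complex. All 3 were higher with exosomes. RHBDF1 was at 29.1, 28.2 and 24.8 CPM in exosome libraries and 21.0, 17.4 and 19.8 CPM in controls (log2 fold change 0.41, adjusted p = 0.0049). RHBDF2 was at 37.6 ± 2.09 CPM in exosome libraries and 26.8 ± 1.37 CPM in controls (0.41, adjusted p = 0.00201), and FRMD8 at 55.1 ± 6.23 CPM and 42.5 ± 3.54 CPM (0.29, adjusted p = 0.0187, and up to 0.092 without exosome library 1 or 2). With the trend removed none of the 3 was called, at −0.01 for RHBDF1 (adjusted p = 0.924), 0.03 for RHBDF2 (0.828) and −0.04 for FRMD8 (0.717).

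ADAM10 is escorted by tetraspanins of the TspanC8 group, which steer it to different substrates. Of the 6, TSPAN15 and TSPAN17 were higher, TSPAN14 and TSPAN5 lower, and TSPAN10 (0.19, adjusted p = 0.435) and TSPAN33 (−0.49, adjusted p = 0.0523) were not called. TSPAN15, which directs ADAM10 to N-cadherin, was at 123, 117 and 106 CPM in exosome libraries and 87.3, 88.2 and 83.6 CPM in controls (0.33, adjusted p = 0.00142). Exosome and control libraries did not overlap for TSPAN15. The calls of TSPAN17 (0.22, adjusted p = 0.0381), TSPAN14 (−0.24, 0.0216) and TSPAN5 (−0.31, 0.0148) were fragile. TSPAN17 lost its call without exosome library 1 or 2 or control library 1 or 2, TSPAN14 without exosome library 2 or 3 or control library 3, and TSPAN5 without exosome library 1 or 2 or control library 3, with adjusted p from 0.0562 to 0.173. With the trend removed none of these 4 was called and TSPAN33 was lower (−0.84, adjusted p = 0.00233).

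Furin-type convertases cut off the inhibitory propeptide of many of these proteases. FURIN was at 70.3 ± 8.29 CPM in exosome libraries and 63.1 ± 1.6 CPM in controls (0.07, adjusted p = 0.527), and it was lower with the trend removed (−0.24, adjusted p = 0.0121). PCSK7, another convertase of the secretory pathway, was higher at 67.0 ± 5.09 CPM in exosome libraries against 53.1 ± 4.80 CPM in controls (0.25, adjusted p = 0.0258), and 0.49 with the trend removed (adjusted p = 0.00012). The PCSK7 call was lost without exosome library 1 or 2 or control library 2, with adjusted p up to 0.149. PCSK5 was not called (0.28, adjusted p = 0.475), and PCSK6 was too low to test.

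Of the 5 inhibitor genes, 3 of the 4 tested were lower with exosomes and 1 was higher, beside 26.1% lower and 25.6% higher over all tested genes, with a list median of −0.63. TIMP2, a secreted inhibitor of many matrix metalloproteases, was at 328, 326 and 337 CPM in exosome libraries and 434, 457 and 526 CPM in controls. All exosome libraries lay below all controls (log2 fold change −0.60, adjusted p = 3.65e-06, and −0.77 with the trend removed). TIMP4, its less widely expressed relative, was at 13.3, 14.5 and 15.7 CPM in exosome libraries and 22.1, 27.0 and 27.3 CPM in controls (−0.89, adjusted p = 6.67e-06, and −1.20 with the trend removed). RECK, a membrane-anchored inhibitor that acts on ADAM10 among others, was at 5.77, 6.21 and 6.22 CPM in exosome libraries and 8.49, 6.96 and 11.6 CPM in controls (−0.66, adjusted p = 0.00579). Control library 3 held the highest RECK value, and without it the change was −0.43 (adjusted p = 0.0687). TIMP1, an inhibitor of ADAM10 as well as of matrix metalloproteases, was at 165 ± 2.70 CPM in exosome libraries and 134 ± 7.16 CPM in controls (0.22, adjusted p = 0.021). Its direction turned with the trend removed (−0.25, adjusted p = 0.00538), and its call was lost without exosome library 1 or 2 (adjusted p up to 0.0631). TIMP3, the TIMP that inhibits ADAM17 and several ADAMTS proteases, was at most 0.236 CPM in any library and was not tested.

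**Figure D5:**
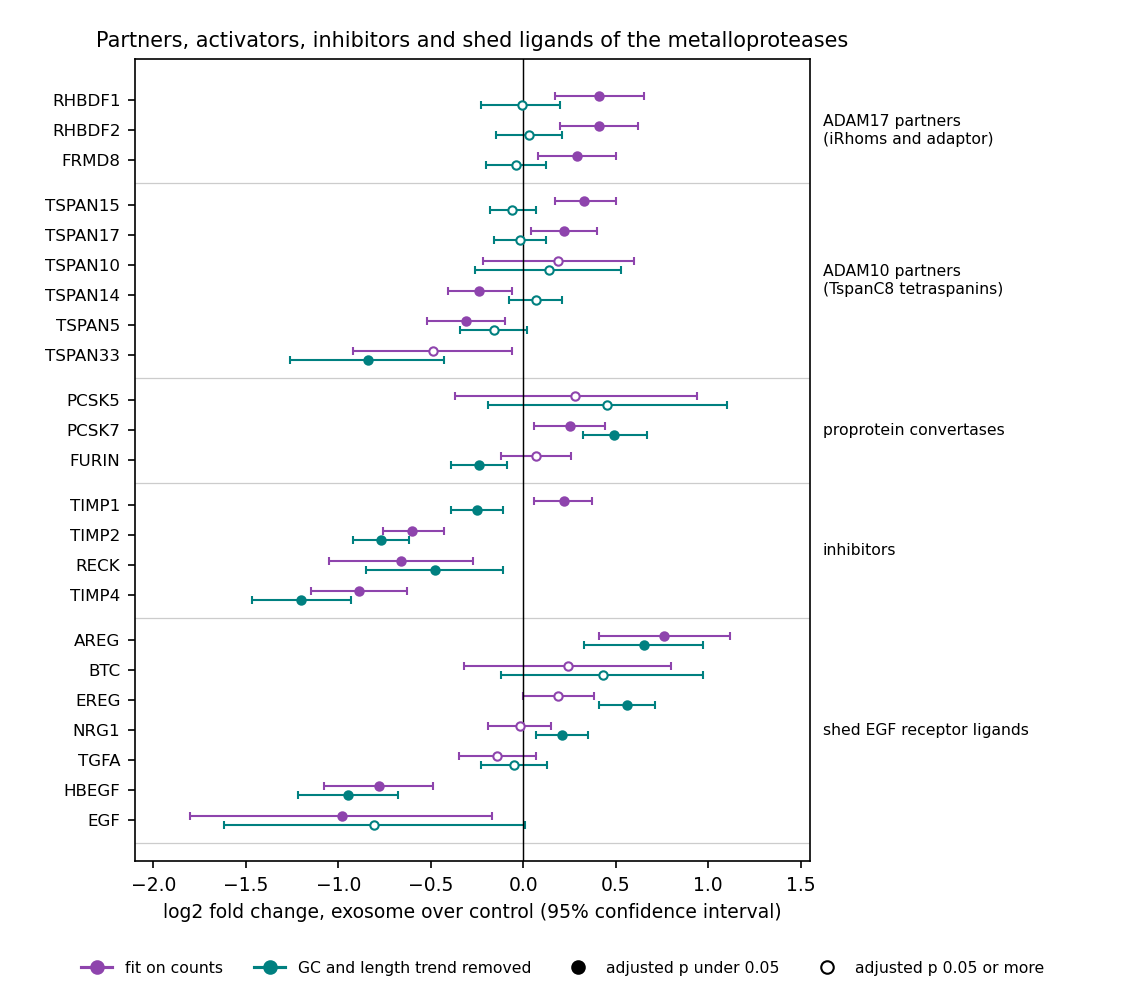
Log2 fold change of exosome over control (horizontal axis) with 95% confidence intervals for partners, convertases, inhibitors and shed ligands of the EGF receptor family, in the fit on counts and with the GC and length trend removed. Filled points are past an adjusted p of 0.05. The ADAM17 partners lie between 0.29 and 0.41 in the fit on counts and between −0.04 and 0.03 with the trend removed, while TIMP2, TIMP4 and HBEGF are lower and AREG higher in both.

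Among the 7 ligands of the EGF receptor family that ADAM10 or ADAM17 can release, 1 was higher, 2 were lower and 4 were not called. AREG (amphiregulin), an ADAM17 substrate, was at 10.5, 14.1 and 10.2 CPM in exosome libraries and 5.97, 7.14 and 6.27 CPM in controls (log2 fold change 0.76, adjusted p = 0.000802, and 0.65 with the trend removed). HBEGF, which is cut by ADAM17 and ADAM12, was at 11.9, 8.97 and 9.67 CPM in exosome libraries and 17.4, 16.1 and 16.2 CPM in controls (−0.78, adjusted p = 0.000106, and −0.95 with the trend removed). The groups did not overlap for either ligand. EGF was low in all libraries (0.810 ± 0.289 CPM in exosome libraries and 1.53 ± 0.308 CPM in controls), and its call (−0.98, adjusted p = 0.0412) was lost with the trend removed (0.118) in DESeq2 (0.119), with library totals (0.0616), with no low-count filter (0.0652), and without exosome library 2 or 3 or control library 1 or 2 (up to 0.157). EREG (epiregulin, 0.19, adjusted p = 0.081) and NRG1 (neuregulin 1, −0.02, adjusted p = 0.884) were not called, but were higher with the trend removed at 0.56 (adjusted p = 4.23e-06) and 0.21 (0.0169). TGFA (−0.14, adjusted p = 0.257) and BTC (betacellulin, 0.24, adjusted p = 0.476) were called in neither fit.

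Of 27 tested genes for other shed membrane proteins, 5 were higher and 14 lower, beside 25.6% and 26.1% of all tested genes. The fit with the trend removed called 3 higher and 10 lower, beside 18.2% and 17.3%. CDH1 (E-cadherin), an ADAM10 substrate, was at 20.0, 20.4 and 21.7 CPM in exosome libraries and 49.5, 54.5 and 50.4 CPM in controls (−1.39, adjusted p = 7.89e-10). The adhesion molecule ALCAM, cut by ADAM17, was at 230 ± 20.1 CPM in exosome libraries and 390 ± 29.8 CPM in controls (−0.84, adjusted p = 9.5e-08). ICAM1, an adhesion molecule shed by ADAM17, was at 87.2 ± 2.82 CPM in exosome libraries and 37.4 ± 2.93 CPM in controls (1.14, adjusted p = 3.17e-09), and the receptor NOTCH1 was at 178 ± 8.26 CPM in exosome libraries and 109 ± 4.54 CPM in controls (0.63, adjusted p = 1.28e-06). These 4 kept their call and direction with the trend removed. The other 3 that were higher were EFNB2 (0.40, adjusted p = 0.000472, and 0.42 with the trend removed), TNFRSF1A (0.45, adjusted p = 3.46e-05) and PVR (0.38, adjusted p = 0.000191), of which TNFRSF1A and PVR were not called with the trend removed.

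Among matrix substrates of the ADAMTS proteases, 7 of 11 tested genes fell and 2 rose, beside 26.1% lower and 25.6% higher over all tested genes, and the list median was −0.67. With the trend removed 6 were lower and 1 higher, beside 17.3% and 18.2%, and the median was −0.39. The type I procollagen genes, whose products are among the substrates of ADAMTS14, moved opposite to it. COL1A1 was at 32.2, 32.0 and 27.7 CPM in exosome libraries and 57.9, 59.0 and 63.7 CPM in controls (−1.06, adjusted p = 2.28e-08). COL1A2 was at 15.5, 11.8 and 13.5 CPM in exosome libraries and 43.4, 36.7 and 42.5 CPM in controls (−1.67, adjusted p = 7.89e-10). Both collagens kept their direction and call with the trend removed, at −1.29 and −1.38. FN1 (fibronectin, −0.74, adjusted p = 1.15e-07) and THBS1 (thrombospondin 1, −1.06, adjusted p = 2.86e-09) were lower too. COL5A1, another fibrillar procollagen gene, did not fall. It was at 503 ± 49.0 CPM in exosome libraries and 440 ± 18.9 CPM in controls. It was called in neither fit (0.11, adjusted p = 0.266, and −0.05 with the trend removed). The rises were in brain-type proteoglycans: BCAN (0.42, adjusted p = 0.00784, and 0.03 with the trend removed) and NCAN, at 1.79 ± 0.267 CPM in exosome libraries and 0.687 ± 0.256 CPM in controls (1.31, adjusted p = 0.00803). Of 8 tested integrin genes whose products bind ADAM proteins, 4 were lower and 1 higher, beside 26.1% and 25.6% of all tested genes. With the trend removed 3 were lower and 1, ITGA2, was higher, beside 17.3% and 18.2%. In the fit on counts the calls were as follows. The lower ones were ITGAV (−0.82, adjusted p = 1.15e-07), ITGB5 (−0.54, 7.93e-05), ITGA6 (−0.47, 0.000114) and ITGB1 (−0.41, 0.000426, and 0.0905 with the trend removed). ITGA5 was higher (0.21, adjusted p = 0.0191), and it was not called without exosome library 1 or control library 1 or 2 (adjusted p up to 0.0905) or with the trend removed (0.172).

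Of 38 other ADAM, ADAMTS and ADAMTS-like symbols looked up, 26 had a row and 14 were tested. None of the 3 tested ADAM genes was called: ADAM11 had a log2 fold change of 0.21 (adjusted p = 0.452), ADAM21 of −0.63 (0.123) and ADAM22 of −0.25 (0.389). ADAMTS2, a procollagen amino-propeptidase like ADAMTS14, was at 0.835, 0.537 and 1.57 CPM in exosome libraries and 2.20, 2.12 and 1.24 CPM in controls. The groups overlapped at these low levels, and the call (−0.98, adjusted p = 0.0454) was lost in DESeq2 (0.11), with library totals (0.0672) and without exosome library 1 or 2 or control library 1 or 2 (up to 0.213). ADAMTS7, which cleaves cartilage oligomeric matrix protein, was at 5.62, 4.37 and 4.12 CPM in exosome libraries and 7.47, 5.99 and 6.73 CPM in controls (−0.60, adjusted p = 0.0136, and −1.01 with the trend removed), and its call was lost without exosome library 2 (0.0592) or control library 1 (0.0664). ADAMTS15, the most abundant of the tested ADAMTS genes outside the list by CPM, was at 44.9 ± 1.99 CPM in exosome libraries and 39.5 ± 3.42 CPM in controls (0.10, adjusted p = 0.384). ADAMTS16 was not called in the fit on counts (−0.40, adjusted p = 0.0551), and was lower with the trend removed (−0.50, 0.0168), and ADAMTS9 and ADAMTS10 were called in neither fit.

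The ADAMTS-like proteins have the thrombospondin repeats without the protease. Of their 5 tested genes 2 were higher and 1 lower, beside 25.6% and 26.1% of all tested genes. With the trend removed 1 was higher and 1 lower, beside 18.2% and 17.3%. ADAMTSL4, which binds fibrillin microfibrils, was at 35.9, 39.3 and 30.7 CPM in exosome libraries and 18.9, 16.0 and 18.6 CPM in controls. All exosome libraries were above all controls (0.90, adjusted p = 2.77e-06, and 0.55 with the trend removed). ADAMTSL5 was at 24.3 ± 4.33 CPM in exosome libraries and 14.7 ± 2.57 CPM in controls (0.64, adjusted p = 0.000785, and 0.22 with adjusted p = 0.169 with the trend removed). THSD4 (ADAMTSL6), a fibrillin-binding member, was at 34.3, 43.6 and 40.6 CPM in exosome libraries and 55.3, 55.4 and 58.6 CPM in controls (−0.60, adjusted p = 3.93e-05, and −0.49 with the trend removed). PAPLN (0.11, adjusted p = 0.332) and ADAMTSL1 (0.72, adjusted p = 0.153) were not called.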

How the data were processed

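RNA libraries of 3 exosome-treated and 3 untreated SK-MES-1 samples were prepared with the NEBNext Ultra RNA kit that the labels' protocols name. STAR and GRCh38 (hg38) are named in the submitters' processing notes; for the counting program, annotation and strand setting, the sources used here give nothing. The authors deposited whole-number read counts per gene, a normalised signal (counts over a size factor), FPKM values, log2 fold changes and p-values; the signal, the authors' log2 fold changes and their p-values were not used. Every test here used the counts: edgeR 4.0.16 in R 4.3.3 (filterByExpr, TMM, robust quasi-likelihood fit on group), with Benjamini-Hochberg adjustment over 12449 genes. CPM are counts over library totals, so their ratio can differ from a fitted fold. In the second fit, a loess trend (span 0.3) of log2 CPM on GC content and length of the longest GENCODE 29 transcript entered as an offset. Only the main edgeR fit was tested on simulated data, which held no GC trend, so the fit with the trend removed was not tested in that way.

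Members and lists were chosen with earlier results of these data known. Named genes are all members, other family genes tested with a mean of at least 1 CPM, every gene of lists of up to 7, and for longer lists the 4 smallest adjusted p plus those called against the majority. A few other genes of the longer lists, SOX2 and COL5A1 among them, are mentioned besides these named genes. P-values measure the spread between samples, which may be technical, as separate cultures are not stated. Alternatives were RLE factors, library totals, other low-count filters, DESeq2 1.42.0, limma-voom (limma 3.58.1), a threshold of 0.01, a replicate block, the trend removed and leaving out each library; leaving out both libraries 3 was added after seeing the data.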

Additional observations from a re-analysis of the deposited data

How the results depend on the processing

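All 9 tested members kept their side of the threshold, and the 7 called ones their direction, under RLE factors, library totals, both low-count filters, DESeq2, limma-voom, a threshold of 0.01, the replicate block and without both libraries 3. Leaving out single libraries gave 3 members higher and 3 to 4 lower, and 2503 to 3234 genes higher and 2608 to 3375 lower over all genes. With the GC and length trend removed, 2 members were higher and 1 lower, and 2263 genes were higher and 2148 lower, against 3190 and 3244. Among named genes called in at least 1 of these fits, the sign turned there for ADAM10 (0.01), ADAM15 (−0.06), ADAM17 (0.06), TSPAN14 (0.07), TSPAN15 (−0.06), TSPAN17 (−0.02), RHBDF1 (−0.01), FRMD8 (−0.04), FURIN (−0.24), TIMP1 (−0.25), NRG1 (0.21) and CD68 (−0.11). It also turned for some genes called in neither fit, ADAM12 among them (0.17). The cause was not tested. With library totals only, 3811 genes were higher and 2495 lower (60.4% higher, against 49.6%), and the median over all genes shifted to 0.078. Per kilobase of the longest transcript, 6 of 10 members in exosome and 4 of 10 in control libraries kept their rank. A replicate block gave 3444 genes higher and 3525 lower. Deviations of same-numbered libraries correlated by 0.058, 0.097 and 0.199. Exosome libraries 2 and 3 each correlated best with the control library of their number, and exosome library 1 slightly better with control library 2 (0.067). Pairs of a library 3 with a library 1 or 2 of the other group were all negative (−0.102 to −0.138). The labels tie no replicate numbers across groups, so the main fit took no pairs and the block is an alternative. Calls were gained by ADAM21 and ADAMTS10 (without control library 1), ADAMTSL1 (without exosome library 3), ADAM22 (without both libraries 3), TSPAN33 and ADAMTS16 (replicate block, adjusted p = 0.0472 and 0.0456), EPCAM (block, without control library 3 and without both libraries 3) and EREG (block, library totals, without control library 3 and without both libraries 3), besides those gained with the trend removed; EGF, CD68, TSPAN14 and NCAN lost theirs without both libraries 3 (0.0505 to 0.153), TSPAN14 and TSPAN5 with library totals, and ADAMTS2 in the block (0.0541). At 30 to 69 reads per library, depth limits ADAMTS6, and ADAMTS1 was at the detection limit.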
